A study of Mus musculus with 6 samples.

Results

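The Iroquois genes (Irx1, Irx2, Irx3, Irx4, Irx5 and Irx6) were examined in mouse neural progenitor cells that over-expressed Sox3 and in control cells without the transgene. The genes were taken by name, and all 6 of 6 had a probe set among the 15302 named genes of the array. Each was represented by the only probe set that matched its RefSeq transcript. The values of Irx2 were identical to those of a second, unnamed probe set, so these cannot be told apart. Irx3 was 1.71-fold lower in the Sox3 over-expressing cells, and none of the other 5 genes passed the test.

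The data came from 6 arrays, 1 per sample, and each group had 3 samples that the labels call biological replicates. The Sox3 over-expression cells had the genotype Sox1-GFP and Nestin-Sox3, in which the Nestin promoter drives Sox3. The control cells had the genotype Sox1-GFP alone. Both groups started from mouse embryonic stem (ES) cells with GFP in the Sox1 locus. Per the labels, they received 0.5 µM retinoic acid on days 0 and 2 of monolayer culture and went through FACS on day 4. The labels do not say whether a genotype is 1 ES cell clone or several, or whether the replicates came from separate cultures. The p-values measure the spread between these samples, and a difference between clones cannot be told apart from one between genotypes.

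Iroquois genes encode homeodomain proteins of the TALE class, which carry extra residues in the homeodomain and mostly act as repressors in the neural tube. In the mouse they lie in a pair of clusters, Irx3, Irx5 and Irx6 on chromosome 8 and Irx1, Irx2 and Irx4 on chromosome 13. The family is known for dividing the neural plate into territories. In the chick neural tube Irx3 and Olig2 repress each other, which sets the dorsal limit of the motor neuron progenitors. In Drosophila the family members araucan and caupolican activate proneural genes.

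The upstream sequence of Irx3 is shown because Irx3 was the member that differed. It is the stretch of 250 bases before the annotated start in RefSeq, at chr8:91801655-91801904 of GRCm38.p6 on the minus strand, printed 5′ to 3′ in the direction of the gene. The Sox core (ACAAAG or ACAATG) and the Iroquois palindrome (ACANNTGT) were searched on both strands, and overlapping matches would both have been counted. Matches would stand in capitals, and there were 0 of either motif.

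Irx3: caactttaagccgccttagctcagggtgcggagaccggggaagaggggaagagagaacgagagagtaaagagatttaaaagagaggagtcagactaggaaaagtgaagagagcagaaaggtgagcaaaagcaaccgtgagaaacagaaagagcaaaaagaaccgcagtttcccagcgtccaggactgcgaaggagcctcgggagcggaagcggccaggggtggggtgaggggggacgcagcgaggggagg

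Over 32536 distinct RefSeq windows of the same length, 25% held the Sox core and 6.33% held the Iroquois palindrome. The G and C content of the Irx3 window was 56%, against a median of 52.4% over all windows. Windows were also matched for Irx2 and Irx4, with 0 matches to either motif. The absence of these letters from these windows is a description of the windows alone.

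The values are log2 signals made by the authors with RMA, a method that corrects background, equalises the arrays and summarises probes. They ran from 4.41 to 14.6 over all probe sets, with no detection call, and the lower quartile of mean signal was 5.73. Signals of different probe sets are not comparable as transcript amounts, so each gene is compared only with itself between groups. The number of arrays limits the precision. Sox3 itself averaged 9.22 ± 0.01 on the Sox3 over-expression arrays and 7.45 ± 0.18 on the control arrays (SD, n = 3 each), and its arrays did not overlap. Of the named genes, 3.94% passed the limma test at a Benjamini-Hochberg adjusted p under 0.05, 1.27% as higher and 2.67% as lower. Over all probe sets 3.62% passed. Of these 255 were higher (1.17%) and 536 lower (2.45%), against 382 and 498 after quantile normalisation and 365 and 455 after cyclic loess. On the first principal component control replicate 3 stood apart, at 22.4, against -15.3 to -7.91 for the Sox3 over-expression arrays and 4.83 and 6.04 for the other control arrays. The leading results are therefore also given without it.

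Irx3 marks progenitors of the intermediate and dorsal neural tube. Its log2 signal was 8.54, 8.62 and 8.73 in Sox3 over-expression replicates 1, 2 and 3, against 9.41, 9.20 and 9.59 in control replicates 1, 2 and 3. All 3 Sox3 over-expression arrays lay below all 3 control arrays, and the control arrays were spread more widely. The means were 8.63 ± 0.10 on the Sox3 over-expression arrays and 9.40 ± 0.20 on the control arrays (SD, n = 3 each). The log2 difference was -0.77 ± 0.10 (SE), with a 95% interval from -1.001 to -0.55 (limma adjusted p = 0.00859). The median log2 difference over the genes in the same decile of mean signal was -0.07. By size of the difference Irx3 stood at place 14 among the 408 genes that fell. Without control replicate 3, the highest control array, the log2 difference was -0.68 ± 0.08 (SE; limma adjusted p = 0.0112). In these bulk samples, fewer cells with Irx3 RNA and less Irx3 RNA per cell cannot be told apart.

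**Figure D1:**
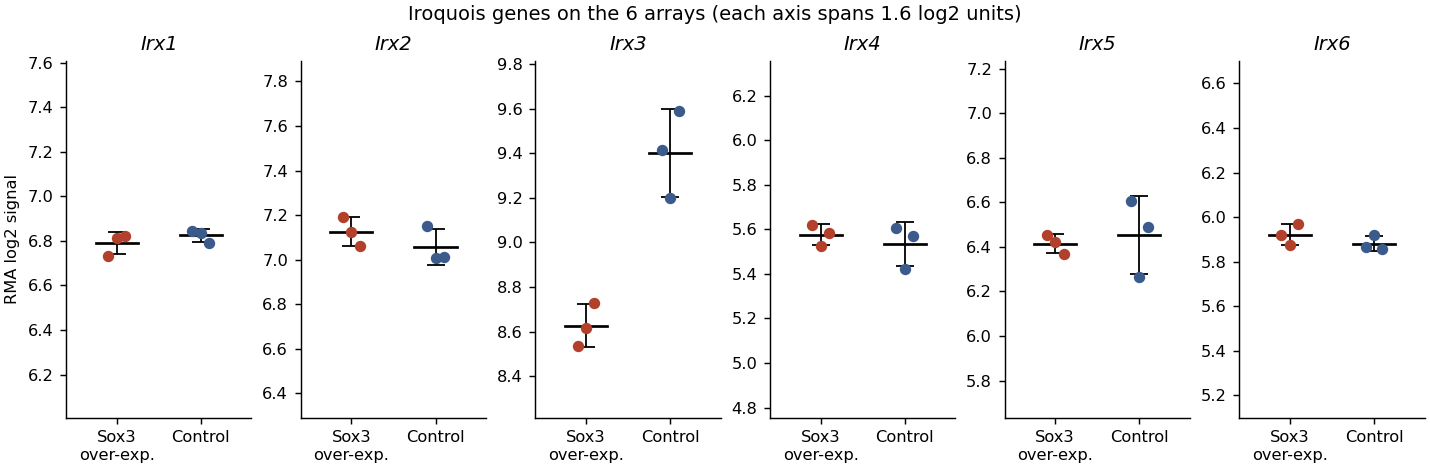
RMA log2 signal of the 6 Iroquois genes, 1 panel per gene, each with an axis of the same span; points are arrays, horizontal lines are means and bars are SD (n = 3 per group), with Sox3 over-expression left of Control. The groups are separate for Irx3, at 8.54 to 8.73 in Sox3 over-expression cells and 9.20 to 9.59 in control cells, and overlap for the other 5 genes.

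Irx5 is the neighbour of Irx3 and is known in the mouse for roles in the heart and in bipolar cells of the retina. Its log2 signal was 6.45, 6.42 and 6.37 in Sox3 over-expression replicates 1, 2 and 3, against 6.61, 6.26 and 6.49 in control replicates 1, 2 and 3. The control arrays lay on both sides of the Sox3 over-expression arrays. The log2 difference was -0.04 ± 0.08 (SE), with a 95% interval from -0.23 to 0.16 (limma adjusted p = 0.80).

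Irx6, the last gene of this cluster, is known in the mouse retina, where it acts in bipolar interneurons. It had 5.92, 5.87 and 5.97 in Sox3 over-expression replicates 1, 2 and 3, against 5.87, 5.92 and 5.86 in control replicates 1, 2 and 3. The groups overlapped, and the log2 difference was 0.04 ± 0.05 (SE), with a 95% interval from -0.07 to 0.15 (limma adjusted p = 0.64). Its sign was negative under quantile normalisation (-0.011), cyclic loess (-0.0034) and array weights (-0.0003).

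In the other cluster, Irx1, which is expressed in developing brain, lung and limb, had 6.73, 6.81 and 6.82 in Sox3 over-expression replicates 1, 2 and 3, against 6.85, 6.84 and 6.79 in control replicates 1, 2 and 3. The highest Sox3 over-expression arrays lay above the lowest control array. The log2 difference was -0.03 ± 0.05 (SE), with a 95% interval from -0.15 to 0.08 (limma adjusted p = 0.69). Irx2, a neighbour with a partly shared expression pattern in the embryo, had 7.19, 7.12 and 7.06 in Sox3 over-expression replicates 1, 2 and 3, against 7.15, 7.01 and 7.01 in control replicates 1, 2 and 3. Replicate 1 was the highest array in both groups, and the groups overlapped. The log2 difference was 0.07 ± 0.06 (SE), with a 95% interval from -0.07 to 0.21 (limma adjusted p = 0.52).

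Irx4 is known for its expression in the ventricles of the heart. It had 5.62, 5.53 and 5.59 in Sox3 over-expression replicates 1, 2 and 3, against 5.61, 5.42 and 5.57 in control replicates 1, 2 and 3. In both groups replicate 2 was the lowest, and the groups overlapped. The log2 difference was 0.04 ± 0.06 (SE), with a 95% interval from -0.10 to 0.18 (limma adjusted p = 0.70). Its sign was negative after quantile normalisation (-0.0043) and without control replicate 2 (-0.013). None of 11 cardiac marker genes passed the limma test in either direction (0 at an adjusted p under 0.05, 4 at an unadjusted p under 0.05, a cut that 23.8% of all named genes passed). Their mean log2 signal per array was 6.25 to 6.33 in Sox3 over-expression cells and 6.18 to 6.28 in control cells. Of these genes, Gata4 and Nkx2-5, cardiac transcription factors, had the largest log2 differences, at 0.26 ± 0.09 and 0.20 ± 0.11 (SE).

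Over the family, 1 of 6 genes fell and 0 rose, beside 2.67% and 1.27% of all named genes. The groups did not overlap for 1 of 6, with the Sox3 over-expression arrays lower, beside 31.3% of all named genes in either direction and 18.3% in this one. At an unadjusted p under 0.05 limma's test also gave 1 of 6 genes, Irx3, beside 23.8% of all named genes. The median log2 difference of the family was 0.0029, and that of all named genes was 0.0001. The 95% intervals of the 5 genes that did not pass lay between -0.23 and 0.21, outside the interval of Irx3. These 5 were dimmer, in deciles 2 to 5 of mean signal, against decile 8 for Irx3. RMA compresses the fold changes of dim genes, and there was no detection call. The part of signal level in this contrast was not tested.

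A call in Irx3 and none in its neighbours does not by itself show that they responded differently, so the difference between genes was tested within each array. The quantity was the log2 signal of the first gene minus that of the second, compared between groups for the 6 pairs of genes within a cluster. For Irx3 minus Irx5 it ran from 2.08 to 2.36 on the Sox3 over-expression arrays and from 2.81 to 3.10 on the control arrays, a change of -0.74 ± 0.12 (SE). For Irx3 minus Irx6 it ran from 2.62 to 2.76 on the Sox3 over-expression arrays and from 3.28 to 3.73 on the control arrays, a change of -0.81 ± 0.14 (SE). Both pairs separated the groups on 6 of 6 arrays. For each the exact two-sided permutation test gave p = 0.1, the smallest that 3 against 3 arrays allows, and p = 0.3 after adjustment over the 6 pairs. The threshold cannot be reached in this design. Irx5 and Irx6 were also dimmer, in deciles 4 and 3 of mean signal, against decile 8 for Irx3, where fold changes are less compressed. The other 4 pairs overlapped between groups, with changes from -0.10 (Irx1 minus Irx2) to 0.03 (Irx2 minus Irx4) and exact permutation p of 0.2 to 0.6.

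The position of Irx3 next to other genes was followed outward from each cluster, in the gene order of GRCm38.p6. Of the 20 nearest protein-coding neighbours, 5 on each side of each cluster, 13 were matched to a probe set. Of these 13, 1 fell and 0 rose, beside 2.67% and 1.27% of all named genes. The gene that fell was Mmp2, a gelatinase of the extracellular matrix and the first neighbour beyond Irx6. Its log2 signal was 9.26, 9.36 and 9.48 in Sox3 over-expression replicates 1, 2 and 3, against 9.83, 9.76 and 9.89 in control replicates 1, 2 and 3. The groups did not overlap, and Mmp2 fell by 0.46 ± 0.07 (log2, SE), with a limma adjusted p of 0.0137. Its call was lost without Sox3 over-expression replicate 1 or 2 (limma adjusted p up to 0.0638) and was kept without each of the other 4 arrays.

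Fto, the nearest neighbour on the other side of Irx3, encodes an RNA demethylase, and its introns are known to hold distant enhancers that contact Irx3. It had 6.84, 6.91 and 6.98 in Sox3 over-expression replicates 1, 2 and 3, against 6.93, 6.95 and 6.98 in control replicates 1, 2 and 3. The groups overlapped, and the log2 difference was -0.04 ± 0.05 (SE; limma adjusted p = 0.62). At the other cluster, the nearest measured genes were Adamts16, a secreted metalloprotease gene, at 0.03 ± 0.05, and Ndufs6, a subunit gene of respiratory complex I, at -0.11 ± 0.04 (log2 difference, SE). Over the 12 neighbours that did not pass, log2 differences ran from -0.15 to 0.07 (limma adjusted p from 0.20 to 0.96). Along chromosome 8, Irx5 and Irx6 lay between Irx3 and Mmp2 without passing the test.

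**Figure D2:**
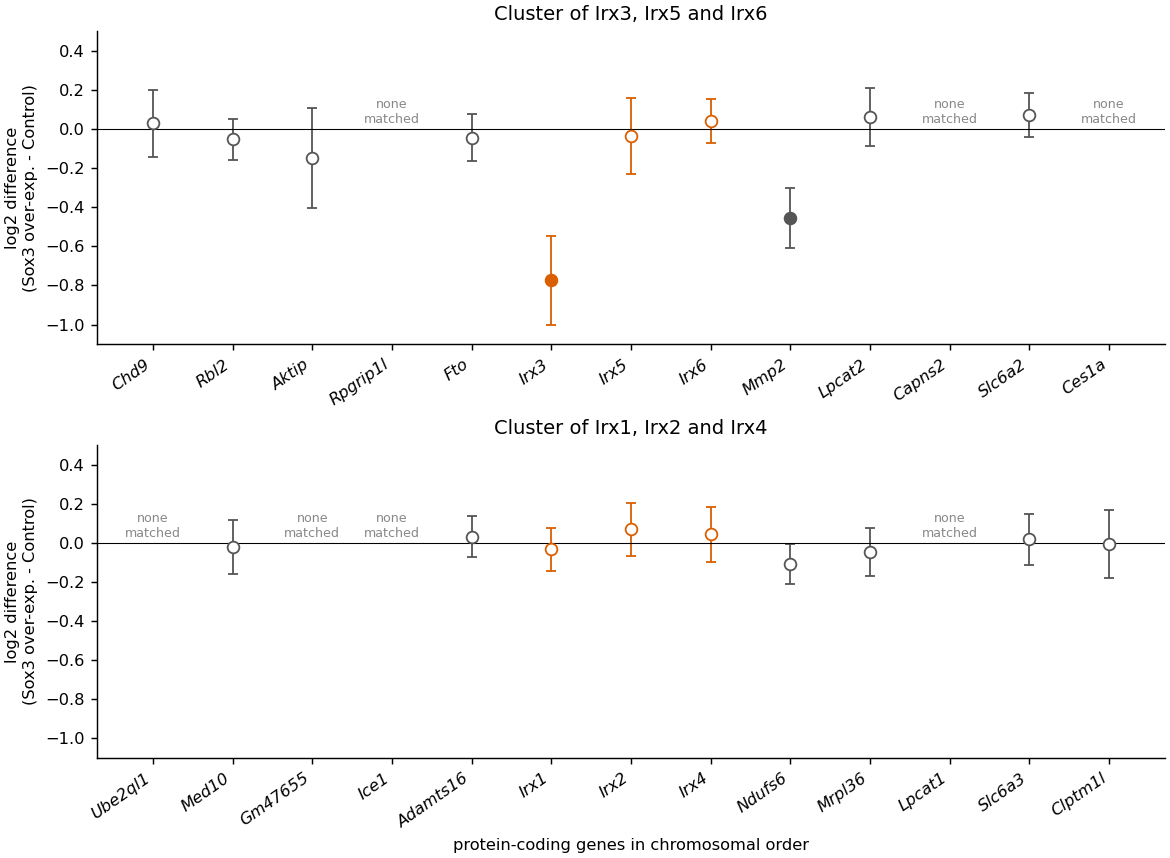
Log2 difference (Sox3 over-expression minus Control) of the Iroquois genes (orange) and their protein-coding neighbours (grey) in chromosomal order, with 95% intervals from limma; filled points passed at an adjusted p under 0.05, and genes without a matched probe set are marked. In the upper panel Irx3 (-0.77) and Mmp2 (-0.46) are filled, and in the lower panel no point is.

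Other TALE homeobox genes were compared as the same structural class. Meis and Pbx proteins bind DNA together with Hox proteins, and Tgif proteins are repressors. Of 12 measured, 2 fell and 0 rose, beside 2.67% and 1.27% of all named genes. The median log2 difference of the 12 was -0.06. Meis2 had 10.4, 10.5 and 10.5 in Sox3 over-expression replicates 1, 2 and 3, against 10.9, 10.9 and 11.1 in control replicates 1, 2 and 3, and fell by 0.48 ± 0.08 (log2, SE), with a limma adjusted p of 0.0204. Pbx2 had 7.71, 7.83 and 7.78 in Sox3 over-expression replicates 1, 2 and 3, against 7.97, 8.15 and 8.16 in control replicates 1, 2 and 3, and fell by 0.32 ± 0.07 (SE; limma adjusted p = 0.0440). The groups were separate for both genes. Over the 12 genes the groups did not overlap for 3 as lower and 1 as higher, beside 18.3% and 13.1% of all named genes. The Meis2 call was lost without Sox3 over-expression replicate 1 or 2 (limma adjusted p up to 0.0788). That of Pbx2 was kept without control replicate 1 and lost without each of the other arrays, with limma adjusted p up to 0.156. It was also lost under median centring and an intensity trend. Without control replicate 3, 1 of the 12 genes fell, beside 286 of all 21876 probe sets.

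Factors that pattern the dorsoventral axis of the neural tube, where Irx3 meets Olig2, were read next. Of 15 measured genes 2 rose and 0 fell, beside 1.27% and 2.67% of all named genes. The median log2 difference of the 15 was 0.12. Olig2, which marks motor neuron progenitors, had 6.27, 6.24 and 6.29 in Sox3 over-expression replicates 1, 2 and 3, against 5.42, 5.61 and 5.42 in control replicates 1, 2 and 3. It rose by 0.78 ± 0.06 (log2, SE), with a limma adjusted p of 0.00196. On the control arrays it was dim, with a mean of 5.48, under the lower quartile of mean signal (5.73). Its groups did not overlap, with the Sox3 over-expression arrays higher, as for 13.1% of all named genes. Irx3 and Olig2 both kept their call without each of the 6 arrays in turn. A relation between the 2 genes was not tested. Dbx1, a homeobox factor of interneuron progenitors, had 6.35, 6.48 and 6.31 in Sox3 over-expression replicates 1, 2 and 3, against 6.11, 6.03 and 5.86 in control replicates 1, 2 and 3. It rose by 0.38 ± 0.08 (SE; limma adjusted p = 0.0397), a call that was lost without any array other than control replicate 1, with limma adjusted p reaching 0.121. Pax6, which shares intermediate progenitors with Irx3 and was chosen after its values were seen, was lower without overlap and differed by -0.19 ± 0.05 (SE), the same sign as Irx3, but did not pass (limma adjusted p = 0.0683). It fell under quantile normalisation, cyclic loess and array weights (limma adjusted p from 0.0102 to 0.0280). Over the 15 genes the groups did not overlap for 5 as higher and 1, Pax6, as lower. Among all named genes these shares were 13.1% and 18.3%. Nkx2-9, also chosen after its values were seen, was higher without overlap, at 0.46 ± 0.10 (log2, SE), and did not pass (limma adjusted p = 0.0540).

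Along the anteroposterior axis, Irx3 is known in the chick for a border with Six3 in the forebrain. None of 16 measured boundary factors passed the limma test (0 at an adjusted p under 0.05, 2 at an unadjusted p under 0.05, beside 23.8% of all named genes), and the median log2 difference was 0.03. Six3, chosen for this known relation, had 5.82, 5.68 and 5.60 in Sox3 over-expression replicates 1, 2 and 3, against 5.67, 5.67 and 5.45 in control replicates 1, 2 and 3. The groups overlapped, and the log2 difference was 0.11 ± 0.08 (SE; limma adjusted p = 0.45). The largest differences of the list were those of Tcf7l2, a Wnt effector and thalamic marker, at 0.22 ± 0.05, and Six6, an eye field factor, at 0.15 ± 0.05 (log2, SE).

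Retinoic acid, which was given to these cultures, is known to promote Irx3 expression in the neural tube. Of 15 genes of retinoid binding, synthesis, breakdown and response reported here, 2 fell and 0 rose, beside 2.67% and 1.27% of all named genes. The median log2 difference of the 15 was 0.03. Crabp1, a retinoic acid binding protein gene, averaged 8.88 ± 0.09 on the Sox3 over-expression arrays and 10.49 ± 0.21 on the control arrays (SD, n = 3 each), a log2 difference of -1.61 ± 0.10 (SE; limma adjusted p = 0.000877). Nr2f1, a COUP-TF nuclear receptor gene, averaged 9.19 ± 0.03 on the Sox3 over-expression arrays and 9.98 ± 0.28 on the control arrays (SD, n = 3 each), and differed by -0.79 ± 0.12 (SE; limma adjusted p = 0.0164). Crabp1 kept its call without each array in turn. Nr2f1 lost it without any 1 of the 3 Sox3 over-expression arrays, where its limma adjusted p reached 0.0722. Of the others, chosen after their values were seen, Cyp26a1 differed by 0.12 ± 0.18 and Rarb by 0.13 ± 0.14 (log2, SE). Both overlapped between groups (limma adjusted p = 0.70 and 0.61). Rarg was higher without overlap, at 0.31 ± 0.11, and Nr2f2 lower without overlap, at -0.29 ± 0.08 (log2, SE). Neither passed (limma adjusted p = 0.14 and 0.087).

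Proneural bHLH factors, the class that the Drosophila family members activate, had 1 of 8 genes higher and 0 lower. Among all named genes 1.27% were higher and 2.67% lower. The median log2 difference of the 8 factors was 0.08. Neurog2, a proneural factor of the neural tube, was the gene that rose, by 1.76 ± 0.06 (log2, SE) at a limma adjusted p of 4.27e-05, and it kept its call without each array in turn. Its signal was 7.97 to 8.15 on the Sox3 over-expression arrays and 6.24 to 6.35 on the control arrays. These groups did not overlap, with the Sox3 over-expression arrays higher, as for 13.1% of all named genes. A relation between Irx3 and Neurog2 was not tested.

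**Figure D3:**
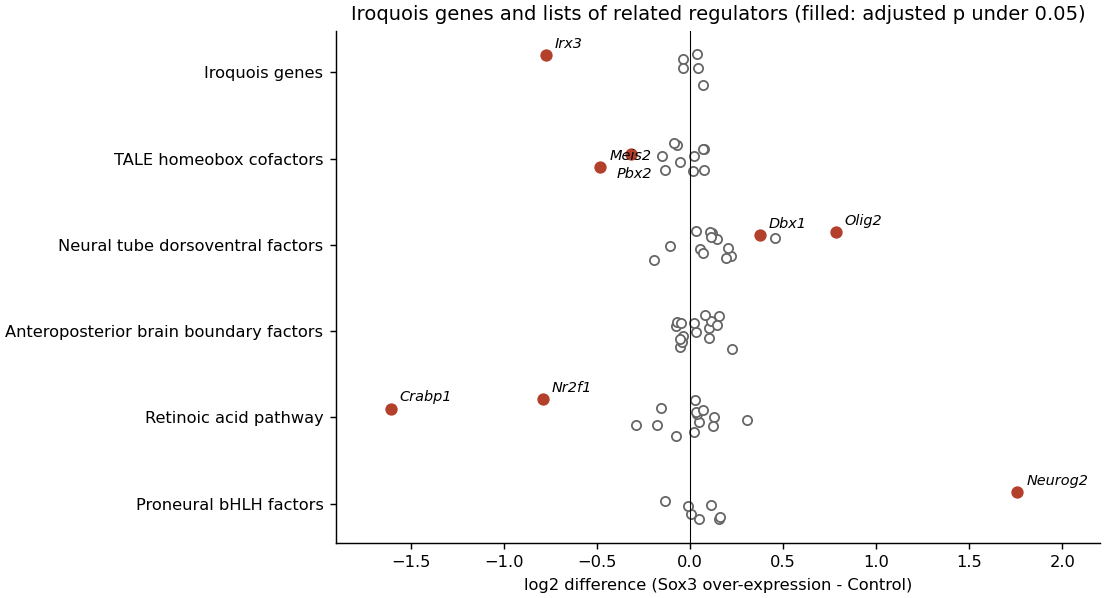
Log2 difference (Sox3 over-expression minus Control) of each measured gene, 1 row per list and 1 point per gene, with filled points for an adjusted p under 0.05. Among the Iroquois genes only Irx3 is filled, on the side of Meis2, Pbx2, Crabp1 and Nr2f1 and opposite to Olig2, Dbx1 and Neurog2; vertical scatter within a row has no meaning.

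The genes whose signal followed Irx3 most closely over the 6 arrays were sought among 667 named genes with an SD over the arrays of at least 0.5 times that of Irx3. The 5 with the highest Pearson correlation were Mgst1, a microsomal glutathione transferase gene (r = 0.993), Cep131, a centrosomal protein gene (0.992), Gm20767 (0.992), Fip1l1, a polyadenylation factor gene (0.992), and Arg2, the mitochondrial arginase gene (0.992). All 5 fell, with log2 differences from -0.98 to -0.40, so these correlations follow the group difference, and the arrays share it. After the group means were taken off, the correlations with Irx3 were 0.911 to 0.948 over the same 6 arrays. In the control group all 5 genes were lowest in replicate 2 and highest in replicate 3, as Irx3 was. The calls of Fip1l1 and Arg2 were lost without Sox3 over-expression replicate 1 or 2 (limma adjusted p up to 0.0640 and 0.0574), and Mgst1, Cep131 and Gm20767 kept theirs without each array in turn. These values are a description, chosen for their likeness.

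**Figure D4:**
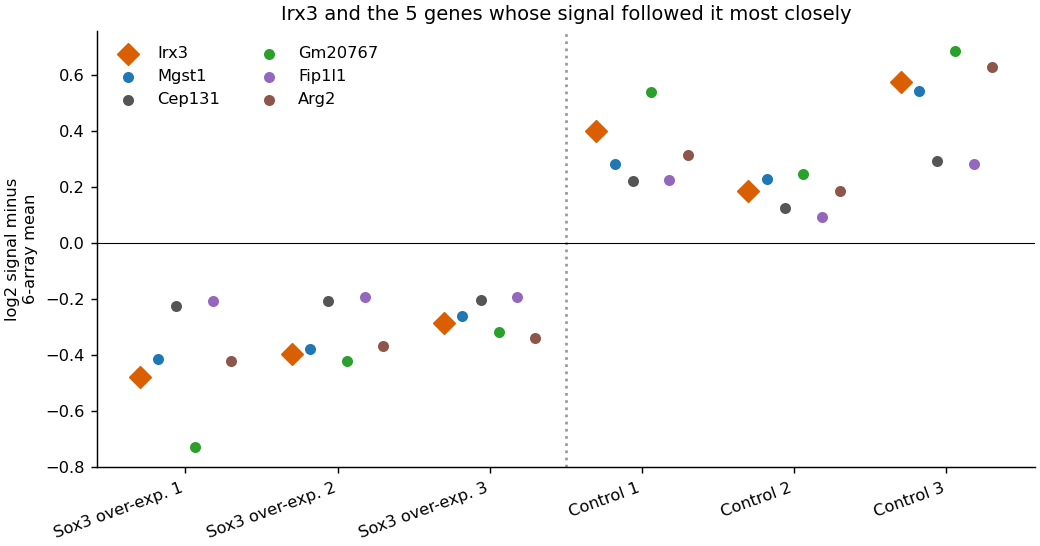
Log2 signal minus the 6-array mean of the same gene for Irx3 (diamonds) and the 5 genes most correlated with it, by array, with Sox3 over-expression arrays left of the dotted line. All points are below 0 on the Sox3 over-expression arrays and above 0 on the control arrays, with control replicate 2 nearest to 0 among the controls.

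Irx3 is also expressed outside the neural tube, so markers of other cell types were read on the same arrays. Of 10 neural progenitor markers 1 rose (Sox3) and 1 fell (Sox2, by 0.37 ± 0.06 on the log2 scale, SE). Among all named genes 1.27% rose and 2.67% fell. Over the 9 markers other than Sox3, the mean log2 signal per array was 7.934 to 8.126 in Sox3 over-expression cells and 7.943 to 7.997 in control cells, which overlap. The largest difference among these 9 was that of Fabp7, a radial glial fatty acid binding protein gene, at 0.77 ± 0.20 (log2, SE), which did not pass (limma adjusted p = 0.0741). It passed under array weights, the filter at the 25th percentile and without Sox3 over-expression replicate 3 (limma adjusted p from 0.0152 to 0.0441). Sox2 was at 11.59 ± 0.07 on the Sox3 over-expression arrays and 11.96 ± 0.09 on the control arrays (SD, n = 3 each). The Sox2 call was lost without control replicate 1 or any 1 of the Sox3 over-expression arrays (limma adjusted p up to 0.0751) and under cyclic loess (0.0529). Of 7 pluripotency markers none passed the limma test (0 at an adjusted p under 0.05, 2 at an unadjusted p under 0.05, beside 23.8% of all named genes). The mean log2 signal per array was 10.1 to 10.3 in both groups, and Dppa5a was at 13.5 in Sox3 over-expression cells and 13.6 in control cells. The largest differences were those of Tdgf1, a Nodal co-receptor gene, at -0.46 ± 0.10, and Esrrb, an orphan receptor gene, at 0.26 ± 0.06 (log2, SE). Esrrb passed under quantile normalisation, cyclic loess, array weights and both filters (limma adjusted p from 0.00870 to 0.0476). Tdgf1 passed under both filters, an intensity trend and without control replicate 2 (limma adjusted p from 0.0167 to 0.0414).

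Of 9 paraxial mesoderm markers 2 fell and 0 rose, beside 2.67% and 1.27% of all named genes. The median log2 difference of the list was 0.06. Its mean log2 signal per array was 7.37 to 7.42 in Sox3 over-expression cells and 7.42 to 7.47 in control cells. Foxc2, a forkhead factor, fell by 0.48 ± 0.05 and Meox1, a somite homeobox factor, by 0.64 ± 0.09 (log2, SE), with limma adjusted p of 0.00422 and 0.0117. In 2 other members of the 9 the Sox3 over-expression arrays were higher without overlap, beside 13.1% of all named genes, and neither passed. Among them was Mesp1, chosen after its values were seen, at 0.23 ± 0.08 (log2, SE; limma adjusted p = 0.14). Tcf15 was at 11.4 in Sox3 over-expression cells and 11.3 in control cells. Meox1 lost its call without control replicate 2 or Sox3 over-expression replicate 1 or 2, where its limma adjusted p reached 0.0582, and Foxc2 kept its call without each array in turn.

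Of 8 endoderm markers 4 fell and 0 rose, beside 2.67% and 1.27% of all named genes. The mean log2 signal of the list per array was 7.31 to 7.52 in Sox3 over-expression cells and 7.50 to 7.81 in control cells. The 4 that fell were Cubn, Afp, Ttr and Foxa2, with log2 differences from -0.999 to -0.29. Afp was dim, at 4.94 in Sox3 over-expression cells and 5.50 in control cells, under the lower quartile of mean signal (5.73). Ttr was at 5.76 in Sox3 over-expression cells and 6.05 in control cells. Foxa1 differed by -0.36 ± 0.14 (SE) and did not pass. Gata6, an endoderm factor chosen after its values were seen, was higher without overlap, at 0.35 ± 0.12 (log2, SE), and did not pass (limma adjusted p = 0.15). The median log2 difference of the list was -0.33. At an unadjusted p under 0.05 limma's test gave 6 of the 8, beside 23.8% of all named genes. Without control replicate 3, 2 of the 8 fell, beside 286 of all 21876 probe sets. Each of the 4 calls was lost without Sox3 over-expression replicate 1 or 2 (limma adjusted p up to 0.116). Those of Afp, Ttr and Foxa2 were also lost without Sox3 over-expression replicate 3 or control replicate 2, and those of Ttr and Foxa2 without control replicate 3.

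Of 7 neural crest and surface ectoderm markers 1 rose (Foxd3, by 0.36 ± 0.08) and 1 fell (the keratin gene Krt8, by 0.50 ± 0.08 on the log2 scale, SE). Among all named genes 1.27% rose and 2.67% fell. The median log2 difference of the 7 markers was 0.08. Their mean log2 signals were 6.84 to 6.92 in Sox3 over-expression cells and 6.87 to 6.95 in control cells. Both calls were lost without replicate 1 or 2 of either group, and that of Foxd3 also without control replicate 3 and under quantile normalisation and cyclic loess. Their limma adjusted p reached 0.157 for Foxd3 and 0.0861 for Krt8. Over the 7 markers the groups did not overlap for 4 as higher and 2 as lower, beside 13.1% and 18.3% of all named genes. At an unadjusted p under 0.05 limma's test gave 5 of the 7, beside 23.8% of all named genes. Krt18, chosen after its values were seen, was lower without overlap, at -0.53 ± 0.12 (log2, SE), and did not pass (limma adjusted p = 0.0573). The part of the mesoderm, endoderm and ectoderm markers in the Irx3 difference was not tested.

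Irx3 passed at the threshold under each of the 15 other settings tried, with log2 differences from -0.88 to -0.65 and limma adjusted p from 0.00191 to 0.0457. The settings were other normalisations, filters on dim probe sets, variance models, array weights, a replicate block, and the omission of each array. The smallest difference was that with array weights, and the highest adjusted p came without Sox3 over-expression replicate 1. Irx5, its neighbour, did not pass under any of the 14 settings that kept it, and its log2 difference ran from -0.13 to 0.07.

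**Figure D5:**
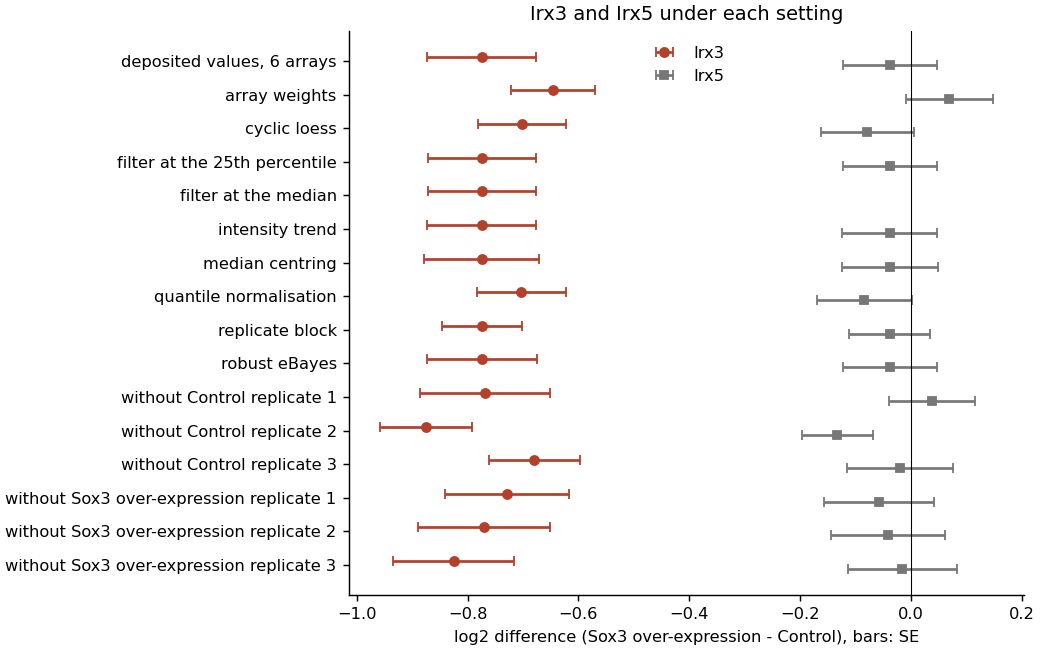
Log2 difference (Sox3 over-expression minus Control) of Irx3 (red circles) and Irx5 (grey squares) with the deposited values and under the 15 other settings; bars are SE. Irx3 lies between -0.88 and -0.65 throughout, Irx5 lies on both sides of 0, and the filter at the median left Irx5 out.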

How the data were processed

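The deposited table holds log2 values. Per the submitters' processing notes, the authors used Affymetrix Power Tools and RMA; the sources used here give neither versions nor the array type. RMA compresses the fold changes of dim genes. Of 21940 probe sets, 64 array controls were left out. The other 21876 were matched by unversioned RefSeq accession to a gene table (GRCm38.p6), which gave 1 symbol for 17123 and none for 4753. Each gene was read from its probe set with the highest mean. The test was limma's moderated test (version 3.58.1, R 4.3.3, two-sided, no block), with Benjamini-Hochberg adjustment over all 21876 probe sets, and the procedure was tested on simulated data. Pairs of genes were compared with exact permutation tests.

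The members and the lists were chosen with earlier results of these data known. Named were all Iroquois genes, up to 4 called genes per list by smallest p or else the 2 with the largest difference, the brightest marker of other cell types, called neighbours and the nearest neighbour on each side, and the 5 genes most correlated with Irx3. Not every gene so chosen is described. Same-numbered arrays deviated from their group means with correlations of 0.29, -0.21 and 0.09, and the numbers were not treated as pairs. Protein sequences were not used here, and 1 gene of the retinoic acid list is not reported here.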

Additional observations from a re-analysis of the deposited data

How the results depend on the processing

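Irx3 was the 1 Iroquois gene that passed under all 15 other settings, and no other member passed under any of them. With the replicate block its log2 difference was -0.77 ± 0.07 (SE, limma adjusted p = 0.00749). The block gave 758 probe sets, against 791 without it. With it, 3 genes of the retinoic acid list fell, against 2 without it. The dorsoventral list had 3 genes higher, against 2, and the neural crest and surface ectoderm list 2 lower, against 1. The counts of the other lists were the same. Each Iroquois gene has 1 named probe set, so averaging probe sets changes nothing. The filter at the 25th percentile left 5 of the 6 members and that at the median left 2, Irx2 and Irx3. The count of probe sets passing was 2097 with array weights and 188 to 475 with 1 array left out, fewer in each of the 6 fits; why array weights raised it was not tested.

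Signs turned for differences that were not called. Irx4 was at -0.0043 after quantile normalisation and between -0.013 and 0.079 with 1 array left out. Irx5 was at 0.070 with array weights and between -0.13 and 0.039 with 1 array left out. Irx6 was at -0.011 after quantile normalisation, -0.0034 after cyclic loess and -0.0003 with array weights. Adamts16 was at -0.015 and -0.011 after quantile normalisation and cyclic loess. With 1 array left out, the change of Irx2 minus Irx4 ran from -0.016 to 0.063 and that of Irx5 minus Irx6 from -0.19 to 0.0056. For all of these the cause was not tested. With 3 arrays per group and no detection calls, small differences of the 5 members that did not pass could not be resolved. Among these are the dim members Irx4 and Irx6. The largest SE of the 5 was that of Irx5, at 0.08.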
